A study of Mus musculus with 4 samples.

Results

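The 10 genes described here, Ezh1, Ezh2, Suz12, Eed, Jarid2, Mtf2, Rnf2, Ring1, Phc1, and Cbx7, encode subunits of the Polycomb repressive complexes. They were taken by symbol from the 33565 genes counted, and all 10 were found and passed the filter on low values that was applied to the whole table (a mean of at least 5 CPM over the 3 lines, met by 11498 genes). CPM are the UMIs of a gene for every 1000000 UMIs of the cells of a line, and a UMI marks 1 captured RNA molecule. Levels and shares are of RNA, and proteins and complexes were not measured.

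RNA was measured in single cells of 3 mouse lines barcoded together in 1 CapSeq library, in which semi-permeable capsules hold the cells through split-pool barcoding. N2a (Neuro-2a), a neuroblastoma line, took columns 1 to 4 of the plate with the opening barcode (BC1), NIH/3T3, an embryonic fibroblast line, took columns 5 to 8, and mESCs of the E14TG2a line took columns 9 to 12. N2a and NIH/3T3 cells were grown in DMEM with serum, whereas mESCs were kept on gelatin with serum, leukemia inhibitory factor, and the inhibitors CHIR99021 and PD0325901, so line and medium cannot be told apart between mESCs and the others. The lines are blocks of this library without replicate libraries, and they are therefore compared by the size of a difference, without a test or a p-value.

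Barcodes of 1000 UMIs or more, with mitochondrial UMIs of 20% or less, were kept as cells, which gave 2323 N2a, 2037 NIH/3T3, and 2137 mESC cells with medians of 6185, 4863, and 4803 UMIs. The cells of a line held 11697865 to 17955221 UMIs. No barcode was shared between lines (0 barcodes), which follows from the split of the lines by BC1. Intervals are 95% exact Poisson intervals for levels and 95% exact binomial intervals for shares, and they cover counting error only. The 32 BC1 sequences of each line are wells loaded with the same line and are not given as separate cultures, so their range describes the spread between wells. All 5 mESC markers and all 5 NIH/3T3 markers were highest in their own line. The marker lists were chosen with earlier results of these data known, so this describes the lines and is not a check of their identity. Of the N2a markers, Hand2, Gm30835, and Syt6 were at 404.2, 3496, and 495.5 CPM, whereas Gata3 was at 3.84 CPM in N2a and 8.44 CPM in mESCs and so did not mark the line.

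RNA from other lines was traced with the 3 leading markers of each line. The highest ratio of a marker's level in another line to that in its own line was 0.624%, for Dppa5a of mESCs in NIH/3T3 cells. With the highest ratio for each source, carried-over RNA would give at most 2.62% of the level of a member in 26 of 30 combinations of member and line. The other 4 combinations were all in NIH/3T3 cells, with 29.4% for Cbx7, 16.3% for Phc1, 15.3% for Jarid2, and 7.71% for Mtf2.

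Polycomb proteins keep developmental genes silent through marks on histones. In Polycomb repressive complex 2 (PRC2), Ezh1 or Ezh2 methylates lysine 27 of histone H3 together with the core subunits Suz12, Eed, and Rbbp4 or Rbbp7, and accessory subunits such as Mtf2 or Jarid2 define alternative forms of the complex. In Polycomb repressive complex 1 (PRC1), Ring1 or Rnf2 ubiquitinates histone H2A, and canonical forms add a chromodomain reader of the Cbx family and a Phc protein. Embryonic stem cells are the setting in which many of these forms were worked out.

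Of the 10 members, Ezh1 and Ezh2 differed least between the lines by their largest ratio, and Mtf2, Jarid2, Phc1, and Cbx7 differed most. Suz12 (4.69-fold), Eed (3.94-fold), Ring1 (2.56-fold), and Rnf2 (2.21-fold) lay between them. Between N2a and NIH/3T3, 4 members were at least 2-fold higher in N2a (Cbx7, Jarid2, Phc1, and Rnf2), where 17.6% of all genes tested were, and 1 was at least 2-fold lower (Suz12), where 16.7% were. Between N2a and mESCs, no member was at least 2-fold higher in N2a (0 of 10, against 20.7% of all genes), and 5 were at least 2-fold lower (Mtf2, Suz12, Phc1, Eed, and Jarid2, against 18.3%). Between NIH/3T3 and mESCs, Ring1 was the 1 member at least 2-fold higher in NIH/3T3 (20.3% of all genes), and 5 were at least 2-fold lower (Cbx7, Jarid2, Phc1, Mtf2, and Eed, against 19.9%). Ratios were taken on the CPM + 1 scale. The median log2 ratio of the members was 0.78 for N2a over NIH/3T3, -0.92 for N2a over mESCs, and -1.39 for NIH/3T3 over mESCs, and that of all genes tested was 0.03, 0.05, and 0.01. The 3 comparisons share lines and are not independent of each other.

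**Figure D1:**
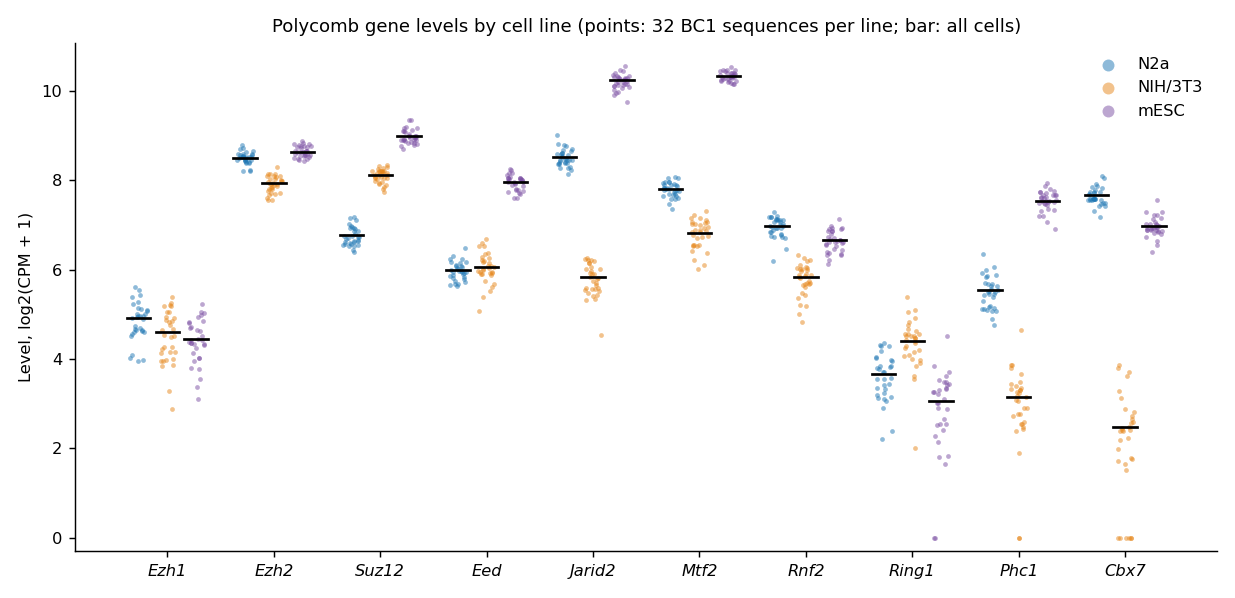
Level of each member on the log2(CPM + 1) scale in N2a, NIH/3T3, and mESC, with a point for each of 32 BC1 sequences and a bar for all cells of the line. Jarid2, Suz12, and Phc1 form 3 separate bands, whereas the points of Ezh1 overlap between all lines, and those of Cbx7 in NIH/3T3 reach 0.

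Ezh2, the main H3K27 methyltransferase of dividing cells (ENSMUSG00000029687, chr6:47507073-47572331, minus strand, GRCm39), differed by less than 2-fold between any lines. It was at 362.5 CPM (353.8 to 371.4) in N2a, 242.6 CPM (233.8 to 251.7) in NIH/3T3, and 396.8 CPM (385.7 to 408.0) in mESCs. Over BC1 sequences the lowest, median, and highest levels were 292.5, 364.5, and 439.7 CPM in N2a, 186.9, 240.7, and 314.0 CPM in NIH/3T3, and 341.6, 396.9, and 471.4 CPM in mESCs, so the wells of N2a overlapped with those of both other lines. The largest ratio between lines was 1.63-fold, of mESCs over NIH/3T3, and mESCs were 1.09-fold above N2a.

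Ezh1, the second catalytic subunit, known for its expression in resting and differentiated cells (ENSMUSG00000006920, chr11:101081934-101117315, minus strand), was low in all 3 lines. Its level was 29.0 CPM (26.5 to 31.6) in N2a, 23.2 CPM (20.5 to 26.1) in NIH/3T3, and 20.9 CPM (18.4 to 23.6) in mESCs. The BC1 sequences reached from 14.4 to 48.0 CPM in N2a, from 6.33 to 40.6 CPM in NIH/3T3, and from 7.52 to 36.6 CPM in mESCs. These ranges overlapped throughout, and the largest ratio was 1.37-fold, of N2a over mESCs. The counting intervals of NIH/3T3 and mESCs overlapped, and the log2 interval of their plain CPM ratio ran from -0.10 to 0.40.

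By RNA, Ezh2 was the leading catalytic subunit in all 3 lines. Ezh2 took 92.6% (92.0 to 93.2) of the Ezh1 and Ezh2 UMIs in N2a, 91.3% (90.2 to 92.3) in NIH/3T3, and 95.0% (94.4 to 95.6) in mESCs, where the interval lay above those of the other lines. Divided by exonic length (9.25 kb for Ezh1, 7.30 kb for Ezh2), the Ezh2 share was 96.0% in mESCs, 94.1% in N2a, and 93.0% in NIH/3T3. Divided by gene length, which would fit UMIs from introns, it was 91.2%, 87.2%, and 85.0% in the same order, so Ezh2 led on each scale and was highest in mESCs. In single cells without thinning, 371 of 2323 N2a cells held UMIs of both genes, as did 169 of 2037 NIH/3T3 and 184 of 2137 mESC cells. After thinning these were 24, 10, and 13 cells. With each cell thinned to 1000 UMIs, cells with Ezh1 UMIs and no Ezh2 UMI were 2.24% of N2a, 1.77% of NIH/3T3, and 1.22% of mESC cells. Without thinning they were 2.37%, 3.04%, and 1.40%. The order of N2a and NIH/3T3 thus differed, but it rested on 52 and 36 thinned cells and on 55 and 62 cells without thinning. The reason was not tested.

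By the distance of centred log2(CPM + 1) values over the 3 lines, the genes nearest to Ezh1 were Zfp101, Cpsf4, and Mtln, and those nearest to Ezh2 were Stk40, Smarcd2, and Dctn1. With 3 lines such likeness is common, and 719 genes lay within a distance of 0.25 of Ezh1 and 512 within 0.25 of Ezh2.

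The 250 bases before the annotated start are shown for Ezh2 and Ezh1, as the paired catalytic subunits, and for Suz12 and Mtf2, as the other members with an E2F-like match, because E2F proteins are regulators of S phase genes and member levels are compared by S phase transcripts further on. They were read from GRCm39 at the canonical GENCODE start, 5′ to 3′ on the strand of the gene, with E2F-like matches (TTCCCGC or TTGGCGC, on either strand) in capitals.
Ezh2, chr6:47572268-47572517, minus strand: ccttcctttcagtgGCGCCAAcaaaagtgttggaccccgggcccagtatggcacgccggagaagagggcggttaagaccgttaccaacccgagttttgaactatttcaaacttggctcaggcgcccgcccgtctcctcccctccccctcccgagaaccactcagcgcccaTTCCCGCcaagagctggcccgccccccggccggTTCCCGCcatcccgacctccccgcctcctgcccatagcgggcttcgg
Ezh1, chr11:101117316-101117565, minus strand: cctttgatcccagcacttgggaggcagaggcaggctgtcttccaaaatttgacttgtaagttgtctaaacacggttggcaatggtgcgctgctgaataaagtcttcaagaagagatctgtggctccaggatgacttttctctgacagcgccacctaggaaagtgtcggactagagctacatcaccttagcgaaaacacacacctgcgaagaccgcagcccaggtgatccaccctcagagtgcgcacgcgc
Suz12, chr11:79883646-79883895, plus strand: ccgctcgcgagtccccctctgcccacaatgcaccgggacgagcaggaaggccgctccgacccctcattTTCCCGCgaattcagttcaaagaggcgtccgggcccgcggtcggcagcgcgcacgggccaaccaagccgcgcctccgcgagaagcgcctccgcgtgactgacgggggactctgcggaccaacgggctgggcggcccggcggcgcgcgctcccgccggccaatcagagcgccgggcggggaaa
Mtf2, chr5:108213358-108213607, plus strand: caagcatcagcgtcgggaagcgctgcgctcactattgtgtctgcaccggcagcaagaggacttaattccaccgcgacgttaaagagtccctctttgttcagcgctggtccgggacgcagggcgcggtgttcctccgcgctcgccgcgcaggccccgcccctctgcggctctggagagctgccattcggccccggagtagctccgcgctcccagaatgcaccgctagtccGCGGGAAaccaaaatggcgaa
Ezh2 held 3 such matches, Suz12 and Mtf2 held 1 each, and the other 7 members had none in this window. A match was present in 6.63% of 21303 promoters of the same length, a share not matched for GC content. The windows of Ezh2, Suz12, and Mtf2 were 65.6%, 73.2%, and 64.4% GC, against a median of 53.2%. Those of Jarid2, Rnf2, and Ring1, without a match, were 66%, 73.2%, and 73.6% GC. ETS-like, GC box, NRF1, and CCAAT box letters were also searched for and are not marked. Eed held an NRF1 match, present in 0.667% of promoters. A match is a run of letters and was not tested as a binding site.

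Among the core subunits, both Suz12 and Eed were highest in mESCs. Suz12, which joins the catalytic subunit to the accessory ones (ENSMUSG00000017548, chr11:79883891-79925421, plus strand), was at 108.0 CPM (103.3 to 113.0) in N2a, 276.7 CPM (267.3 to 286.4) in NIH/3T3, and 510.5 CPM (497.9 to 523.2) in mESCs. Over BC1 sequences it reached from 83.0 to 143.1 CPM in N2a, from 212.4 to 323.4 CPM in NIH/3T3, and from 412.1 to 648.4 CPM in mESCs, so the wells of the lines did not overlap. N2a was the low line, 2.55-fold below NIH/3T3 and 4.69-fold below mESCs, and Suz12 was the 1 member that was at least 2-fold lower in N2a than in NIH/3T3.

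Eed, which binds trimethylated H3K27 and stimulates the enzyme (ENSMUSG00000030619, chr7:89603862-89630217, minus strand), had a different pattern. It was at 62.3 CPM (58.7 to 66.0) in N2a, 65.7 CPM (61.1 to 70.5) in NIH/3T3, and 248.3 CPM (239.5 to 257.2) in mESCs. The wells of N2a (48.3 to 89.1 CPM) lay inside those of NIH/3T3 (32.5 to 101.6 CPM), and the wells of mESCs (192.9 to 302.6 CPM) lay above both. mESCs were 3.94-fold above N2a and 3.74-fold above NIH/3T3, whereas the log2 interval of N2a over NIH/3T3, from -0.21 to 0.06, included 0.

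The histone-binding core subunits Rbbp4 and Rbbp7, which were not among the 10, were between 221.1 and 326.4 CPM and between 296.7 and 514.4 CPM, and neither differed by 2-fold between any lines.

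Mtf2 and Jarid2, the accessory subunits of PRC2 among the members, differed widely between the lines, but the UMIs of Lcor did not. Lcor, a gene with an accessory subunit of PRC2.1 among its products, was chosen after its values were seen. It was at 220.1 CPM in mESCs, 204.1 CPM in N2a, and 251.7 CPM in NIH/3T3, at most 1.23-fold apart. Counts were per gene, so which transcript of Lcor they came from cannot be told. Per exonic kb, Mtf2 was at 187.7 CPM and Jarid2 at 111.8 CPM in mESCs, above Ezh2 at 54.4 CPM. In N2a they were at 32.5 and 34.3 CPM, below Ezh2 at 49.7 CPM. In NIH/3T3 they were at 16.4 and 5.18 CPM, below Ezh2 at 33.2 CPM. Not divided by length, Jarid2 at 369.0 CPM and Ezh2 at 362.5 CPM were close in N2a, with overlapping intervals. Levels of these genes per gene length were not compared. Mtf2, the Polycomb-like protein that recruits the PRC2.1 form to CpG-rich DNA (ENSMUSG00000029267, chr5:108213540-108256877, plus strand), was at 223.3 CPM (216.4 to 230.3) in N2a, 112.3 CPM (106.3 to 118.6) in NIH/3T3, and 1289 CPM (1269 to 1309) in mESCs. Its wells reached from 162.3 to 268.5 CPM, from 63.2 to 157.7 CPM, and from 1132 to 1481 CPM in the same order, without overlap. mESCs were 5.75-fold above N2a and 11.4-fold above NIH/3T3. N2a was 1.98-fold above NIH/3T3, just inside the 2-fold threshold.

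Among the Polycomb-like proteins, Mtf2 took 98.8% of the UMIs in N2a and 99.6% in mESCs. In NIH/3T3 its share was 86.7% (84.9 to 88.4), with 7.85% for Phf1 and 5.41% for Phf19, the other members of this family. Phf19 was at 7.01 CPM in NIH/3T3, at 1.46 CPM in mESCs, and at 0.111 CPM, from 2 UMIs, in N2a. Per exonic length the Mtf2 share was 99.3% in mESCs, 97.8% in N2a, and 79.9% in NIH/3T3. Per gene length it was 97.1%, 90.7%, and 51.8% in the same order, with 41.6% for Phf1 in NIH/3T3.

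Jarid2, a cofactor without demethylase activity that marks the PRC2.2 form (ENSMUSG00000038518, chr13:44882950-45075119, plus strand), was at 369.0 CPM (360.2 to 378.0) in N2a, 55.8 CPM (51.6 to 60.3) in NIH/3T3, and 1204 CPM (1184 to 1223) in mESCs. The wells reached from 281.5 to 512.9 CPM, from 22.1 to 76.1 CPM, and from 865.9 to 1501 CPM in the same order, so the 3 lines stood apart. The ratios were 21.2-fold for mESCs over NIH/3T3, 6.51-fold for N2a over NIH/3T3, and 3.26-fold for mESCs over N2a. The wells of mESCs had an SD of 138.1 CPM, where counting error alone would give 57.5 CPM, and those of N2a an SD of 49.3 CPM against 26.3 CPM.

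Aebp2, the other subunit of PRC2.2, was at 403.4 CPM in mESCs, 126.3 CPM in N2a, and 61.7 CPM in NIH/3T3. Jarid2 took 74.5% (73.6 to 75.4) of the UMIs of this pair in N2a and 74.9% (74.3 to 75.5) in mESCs, and 47.5% (44.8 to 50.2) in NIH/3T3. Per exonic length the Jarid2 share was 81.7%, 82.0%, and 58.0% in N2a, mESCs, and NIH/3T3, and per gene length it was 71.7%, 72.1%, and 43.9%. Which of the pair led in NIH/3T3 therefore depended on the scale, with Aebp2 at 56.1% per gene length.

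In PRC1, the E3 ligase Rnf2 (also called Ring1b) varied less than Mtf2 and Jarid2. Rnf2 (ENSMUSG00000026484, chr1:151333755-151376729, minus strand) was at 124.5 CPM (119.4 to 129.8) in N2a, 55.7 CPM (51.5 to 60.2) in NIH/3T3, and 100.3 CPM (94.8 to 106.1) in mESCs. N2a was 2.21-fold above NIH/3T3, and mESCs were 1.79-fold above NIH/3T3. The highest well of NIH/3T3, at 79.3 CPM, overlapped with the lowest of N2a, at 72.0 CPM, and of mESCs, at 68.6 CPM.

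Ring1, its paralogue (ENSMUSG00000024325, chr17:34239766-34243654, minus strand), was highest in the line in which Rnf2 was lowest. It was at 11.7 CPM (10.2 to 13.4) in N2a, 20.3 CPM (17.8 to 23.0) in NIH/3T3, and 7.30 CPM (5.87 to 8.98) in mESCs, and the wells of all lines overlapped. NIH/3T3 was 2.56-fold above mESCs and 1.67-fold above N2a. Rnf2 took 91.4% (90.2 to 92.5) of the UMIs of the pair in N2a, 73.3% (70.3 to 76.2) in NIH/3T3, and 93.2% (91.7 to 94.5) in mESCs, and 88.5%, 66.6%, and 90.9% per exonic length.

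The Rnf2 lead depended on the length that UMIs are divided by. Ring1 spans 3.89 kb and Rnf2 43.0 kb, and per gene length the Rnf2 share was 55.4% in mESCs, 49.1% in N2a, and 19.9% in NIH/3T3. NIH/3T3 had the lowest Rnf2 share on each of these scales.

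Phc1, a polyhomeotic protein that polymerizes through its SAM domain (ENSMUSG00000040669, chr6:122291091-122317558, minus strand), was at 45.3 CPM (42.2 to 48.5) in N2a, 7.86 CPM (6.34 to 9.65) in NIH/3T3, and 185.6 CPM (178.1 to 193.4) in mESCs. Its wells reached from 26.0 to 79.9 CPM in N2a, from 0 to 24.1 CPM in NIH/3T3, and from 119.8 to 244.4 CPM in mESCs, without overlap, and 30 of 32 wells of NIH/3T3 held a UMI. mESCs were 21.1-fold above NIH/3T3 and 4.03-fold above N2a.

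The Phc genes changed places between the lines by their share of UMIs. Phc1 took 74.9% (73.3 to 76.4) of the Phc UMIs in mESCs, 29.5% (27.8 to 31.2) in N2a, and 4.49% (3.63 to 5.47) in NIH/3T3. Phc2 took 62.7% (60.6 to 64.8) in NIH/3T3, where it was at 110.0 CPM, and 9.63% in mESCs, where it was at 23.9 CPM. Phc3 varied least of the 3, from 38.4 CPM in mESCs to 57.4 CPM in NIH/3T3. Per exonic length, Phc1 led in mESCs with 79.1%, and Phc2 led in NIH/3T3 with 74.8% and in N2a with 45.9%. Per gene length Phc1 led in mESCs with 89.9% and Phc2 in NIH/3T3 with 49.7%, but in N2a Phc1 led with 56.7% and Phc2 had 19.0%.

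Cbx7, the chromodomain reader that is the main Cbx protein of embryonic stem cells (ENSMUSG00000053411, chr15:79800001-79855320, minus strand), had the largest ratio among the members. It was at 201.5 CPM (195.0 to 208.2) in N2a, 4.53 CPM (3.39 to 5.93) in NIH/3T3, and 124.7 CPM (118.6 to 131.1) in mESCs. The wells reached from 143.3 to 271.3 CPM in N2a, from 0 to 13.5 CPM in NIH/3T3, and from 83.2 to 188.6 CPM in mESCs, so N2a and mESCs overlapped and NIH/3T3 lay far below. N2a was 36.6-fold and mESCs 22.7-fold above NIH/3T3 on the CPM + 1 scale. With a pseudocount of 5 CPM the log2 ratio of N2a over NIH/3T3 was 4.44 in place of 5.19, and that of NIH/3T3 over mESCs was -3.77 in place of -4.51. The NIH/3T3 level rested on 53 UMIs in 52 cells, of which carried-over RNA could give 29.4%.

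Cbx6, another chromodomain gene of the family, was compared with Cbx7 as a pair chosen after the values were seen. Cbx6 was at 120.6 CPM in NIH/3T3, 63.9 CPM in N2a, and 37.7 CPM in mESCs. Cbx7 took 75.9% (74.7 to 77.1) of the UMIs of the pair in N2a, 76.8% (74.9 to 78.6) in mESCs, and 3.62% (2.72 to 4.71) in NIH/3T3. The 2 genes are neighbours on chromosome 15 with 81.1 kb between them, and the log2 ratio of N2a over NIH/3T3 was 5.19 for Cbx7 and -0.91 for Cbx6. Per exonic length, the Cbx7 share was 83.6% in N2a, 84.2% in mESCs, and 5.72% in NIH/3T3. Per gene length Cbx7 no longer led in N2a and mESCs, with 38.1% and 39.3%.

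**Figure D2:**
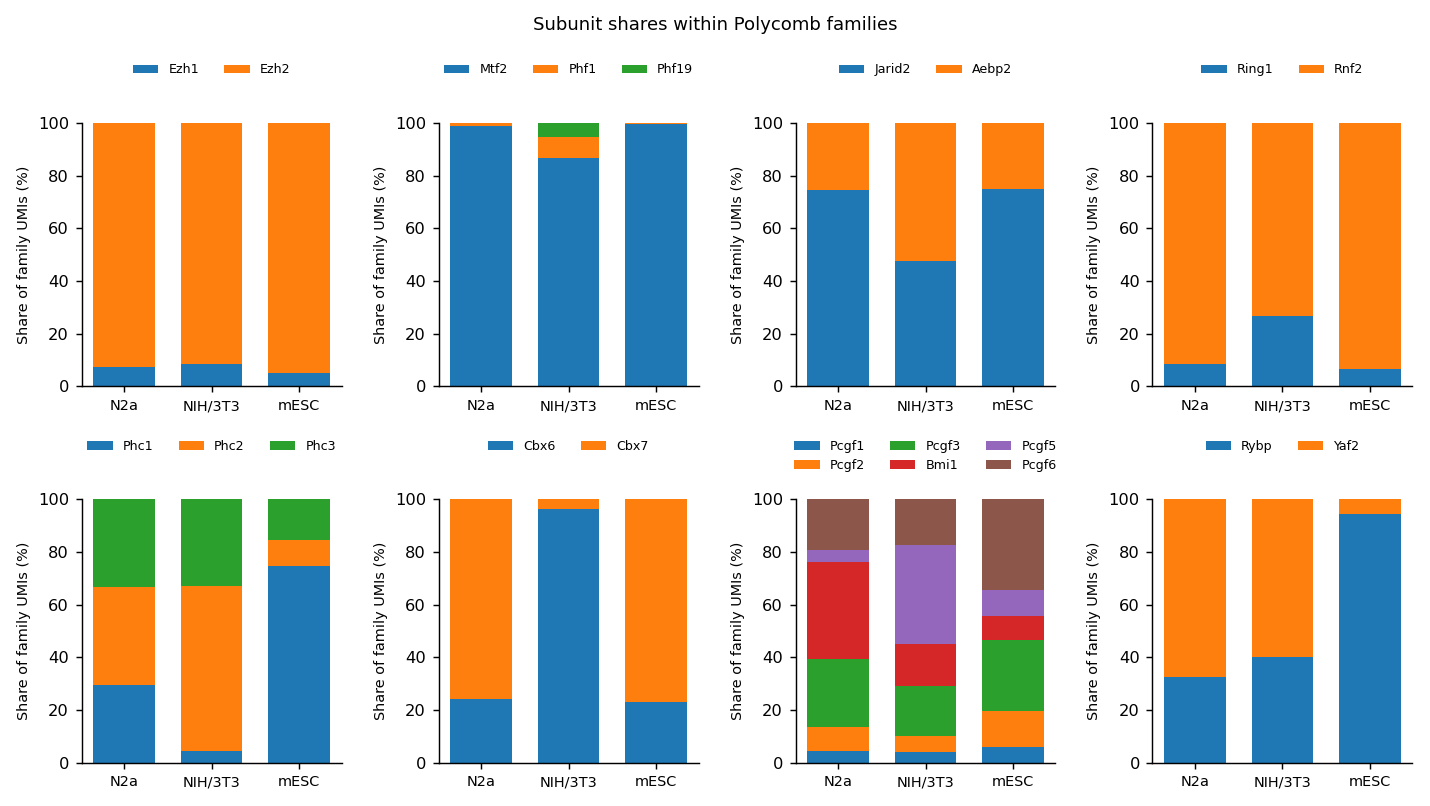
Stacked bars of the percent of family UMIs taken by each gene in N2a, NIH/3T3, and mESC, for 8 groups of related Polycomb genes, not divided by length. The Ezh bars look alike in the 3 lines, whereas Phc1 falls from 74.9% in mESCs to 4.49% in NIH/3T3 and Cbx7 from 76.8% to 3.62% of the pair with Cbx6.

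The share of cells with a UMI followed the levels. After each cell was thinned to 1000 UMIs, Mtf2 was found in 70.1% (68.1 to 72.0) of mESCs, 18.6% (17.0 to 20.2) of N2a, and 10.1% (8.79 to 11.5) of NIH/3T3 cells, and Jarid2 in 66.0% (63.9 to 68.0), 28.5% (26.7 to 30.4), and 4.61% (3.74 to 5.62). Ezh2 was found in 31.4% (29.5 to 33.5) of mESCs, 29.2% (27.3 to 31.1) of N2a, and 20.1% (18.4 to 21.9) of NIH/3T3 cells, and Ezh1 in 1.82%, 3.27%, and 2.26%. Suz12 was found in 8.95% of N2a, 20.4% of NIH/3T3, and 37.3% of mESC cells. Eed was found in 20.3% of mESCs and in 5.94% of N2a and 6.09% of NIH/3T3 cells.

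Of the PRC1 members, Rnf2 was found in 11.8% of N2a, 4.86% of NIH/3T3, and 8.80% of mESC cells, and Cbx7 in 17.6%, 0.442%, and 11.5% of the same lines. Phc1 was found in 4.91%, 0.687%, and 15.4%, and Ring1 in 1.55%, 2.16%, and 0.655%. Without thinning, the shares for N2a, NIH/3T3, and mESCs were 18.3%, 11.3%, and 10.0% for Ezh1, 78.0%, 63.0%, and 76.9% for Ezh2, 46.3%, 66.0%, and 81.5% for Suz12, 32.9%, 28.1%, and 65.2% for Eed, and 77.1%, 23.9%, and 92.3% for Jarid2. In the same order they were 67.1%, 42.1%, and 96.0% for Mtf2, 51.7%, 24.99%, and 38.5% for Rnf2, 8.09%, 10.6%, and 3.93% for Ring1, 26.3%, 4.37%, and 53.8% for Phc1, and 59.4%, 2.55%, and 42.4% for Cbx7. N2a cells had the highest median depth, so the thinned shares are the ones to compare between lines.

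As a reference for carried-over RNA, Gm30835 of N2a was found in 0.442% of thinned NIH/3T3 cells and 0.374% of thinned mESCs, and Dppa5a of mESCs in 0.775% of N2a and 1.28% of NIH/3T3 cells. The share of Cbx7 in NIH/3T3 equalled that of Gm30835 there, and that of Phc1 in NIH/3T3 was below that of Dppa5a there, so expression was not read from these shares. Gm30835 and Dppa5a are far more abundant in their own lines than the members are, and the computed carry-over was 29.4% of the Cbx7 level and 16.3% of the Phc1 level. The share of Ring1 in mESCs was above that of Gm30835 there. For Ring1 in mESCs the carried-over level computed above was 0.101 CPM, or 1.38% of its level.

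Before thinning, the median number of members found in a cell was 6 for mESCs, 5 for N2a, and 3 for NIH/3T3. The median number of all genes found in a cell was 2600, 3157, and 2674 in the same order. After thinning, at least 1 member was found in 97.8% of mESCs, 77.4% of N2a, and 53.5% of NIH/3T3 cells, and the median number per cell was 3 in mESCs and 1 in both other lines. Mtf2 and Jarid2 were the members found in the most thinned mESCs.

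**Figure D3:**
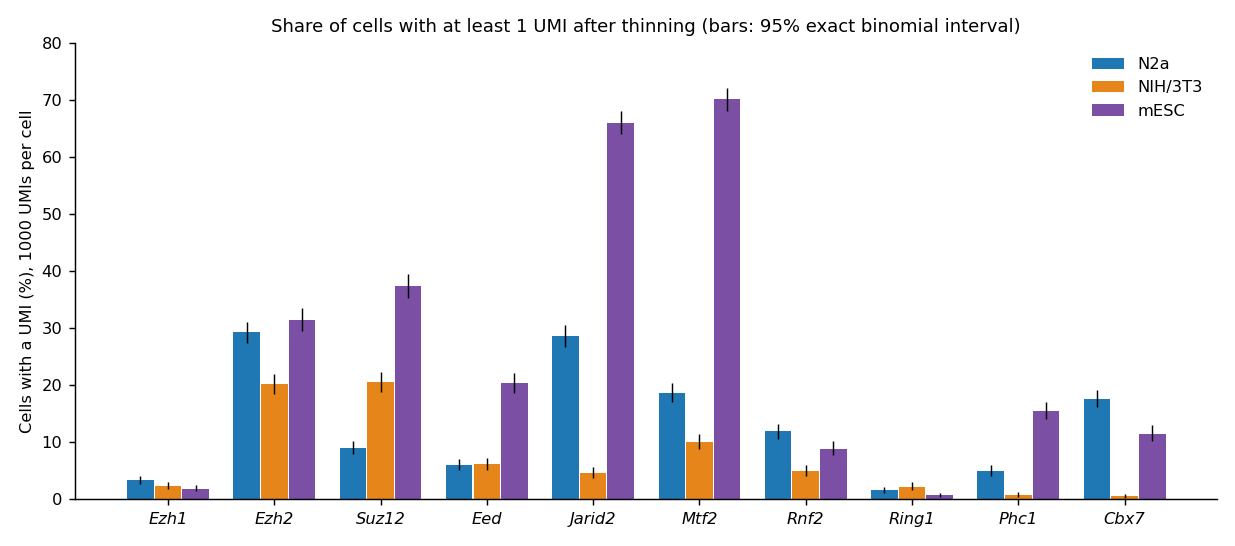
Percent of cells with at least 1 UMI of each member after thinning every cell to 1000 UMIs, with exact 95% binomial intervals. Mtf2 and Jarid2 reach 70.1% and 66.0% in mESCs, Ezh2 lies between 20.1% and 31.4% in all lines, and Cbx7 in NIH/3T3 is at 0.442%.

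The other genes of the pathway were taken from a list of 37, of which 36 were tested and Phf19 was below the filter. Between N2a and NIH/3T3, 8 were at least 2-fold higher in N2a and 4 lower. Between N2a and mESCs, 7 were higher in N2a and 10 lower, and between NIH/3T3 and mESCs, 9 were higher in NIH/3T3 and 11 lower. The median log2 ratios were 0.52, -0.18, and -0.16. Of all genes tested, 17.6% were higher and 16.7% lower in the N2a and NIH/3T3 comparison, 20.7% and 18.3% in that of N2a and mESCs, and 20.3% and 19.9% in that of NIH/3T3 and mESCs.

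Epop, an accessory subunit of PRC2.1, stood out with 126.5 CPM in mESCs against 0.613 CPM (11 UMIs) in N2a and 0.427 CPM (5 UMIs) in NIH/3T3. Scmh1, a PRC1-associated protein, was at 102.4 CPM in NIH/3T3 cells, 50.1 CPM in mESCs, and 0.613 CPM in N2a.

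The RNA levels of Rybp and Yaf2, which replace a Cbx protein in variant PRC1 forms, also differed between the lines. Rybp was at 390.6 CPM in mESCs, 109.8 CPM in N2a, and 65.0 CPM in NIH/3T3, whereas Yaf2 was at 21.99, 225.8, and 96.2 CPM. Rybp took 94.7% (94.0 to 95.3) of the UMIs of the pair in mESCs, against 32.7% in N2a and 40.3% in NIH/3T3. Per exonic length Rybp had 52.7% in NIH/3T3, and per gene length 38.0%, so the lead there depended on the scale. Auts2, which joins variant PRC1 with Pcgf3 or Pcgf5, was at 495.2 CPM in N2a and 129.4 CPM in mESCs, and at 1.20 CPM (14 UMIs) in NIH/3T3. Auts2 spans 1106 kb, and whether its UMIs came from introns was not tested.

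The Pcgf proteins, which set the type of PRC1, had a leading gene that depended on the line and on the scale. By UMIs, Bmi1 (Pcgf4) took 36.7% (35.5 to 38.0) in N2a, Pcgf5 took 37.7% (36.3 to 39.2) in NIH/3T3, and Pcgf6 took 34.5% (32.9 to 36.1) in mESCs. Per exonic length, Bmi1 led in N2a with 45.6% and Pcgf6 in mESCs with 36.7%, but in NIH/3T3 Bmi1 led with 24.9% and Pcgf5 had 18.3%. Per gene length Bmi1 led in N2a with 48.5% and in NIH/3T3 with 30.2%, and in mESCs Pcgf1 had 30.6% and Pcgf6 30.3%. For N2a, NIH/3T3, and mESCs, the level of Bmi1 was 112.9, 56.6, and 25.1 CPM, and that of Pcgf5 was 14.3, 135.5, and 26.5 CPM.

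Other genes past 2-fold, with levels given for N2a, NIH/3T3, and mESCs, included Bcor, the corepressor of a variant PRC1, at 186.4, 39.2, and 49.5 CPM. Fbrsl1, a paralogue of Auts2, was at 35.5, 24.0, and 188.0 CPM. The H3K27 demethylase Kdm6a was at 115.9, 61.7, and 262.9 CPM, and Kdm6b at 107.3, 32.8, and 60.6 CPM. Of the Asxl proteins, which activate the H2A deubiquitinase Bap1, Asxl1 was at 256.2, 118.6, and 282.0 CPM, Asxl2 at 137.7, 89.5, and 280.5 CPM, and Asxl3 at 18.2, 48.0, and 46.4 CPM. Mga, of the Pcgf6 form of PRC1, was at 215.7, 125.2, and 441.5 CPM, and Bcorl1 at 3.90, 8.21, and 23.0 CPM. E2f6, a DNA-binding partner of variant PRC1 that was below the level set for naming and was chosen after its values were seen, was at 13.0 CPM in N2a, 17.4 CPM in mESCs, and 0.171 CPM in NIH/3T3, from 2 UMIs. The log2 counting interval of its N2a over NIH/3T3 ratio ran from 4.38 to 9.30.

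**Figure D4:**
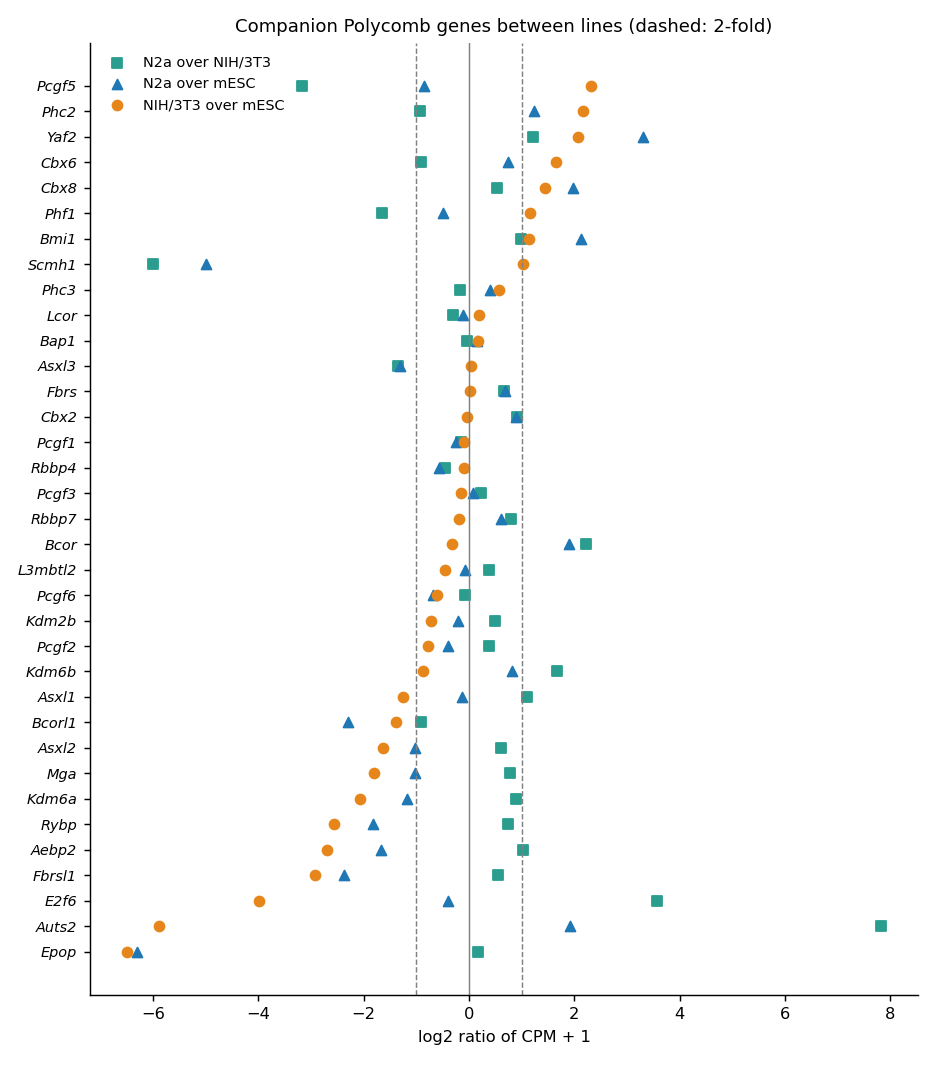
Log2 ratio of CPM + 1 between each pair of lines for the other Polycomb genes tested and reported, ordered by the NIH/3T3 over mESC ratio, with dashed lines at 2-fold. Pcgf5, Phc2, and Yaf2 are at the NIH/3T3 end and Epop, Auts2, and E2f6 at the mESC end.

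In N2a, Ezh2 was higher in cells with more S phase transcripts. Cells of each line were ranked by the share of their UMIs from 30 S phase genes, none of them a member, and the terciles with the highest and the lowest share were compared within the line. In N2a, Ezh2 was at 519.4 CPM (501.0 to 538.4) in the highest tercile and 245.3 CPM (232.9 to 258.1) in the lowest, a 2.11-fold ratio at the 98.6th percentile of 10500 genes. In NIH/3T3 it was at 274.3 CPM (258.0 to 291.4) against 213.2 CPM (198.4 to 228.8), or 1.29-fold, and in mESCs at 408.3 CPM (388.7 to 428.7) against 372.0 CPM (352.7 to 392.1), or 1.10-fold. The NIH/3T3 ratio was at percentile 90.3 and the mESC ratio at percentile 71.2 of the genes of the line. The median log2 ratio of all genes was between -0.02 and 0.01. The difference between the lines was not tested, since no line had a replicate, and the terciles of mESCs were closer in S phase share, with 8324 against 4528 CPM of the list, than those of N2a, with 7111 against 1980 CPM.

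Ezh1 went the other way in N2a, with 23.8 CPM (19.9 to 28.1) in the highest tercile and 34.8 CPM (30.2 to 39.9) in the lowest, or 0.69-fold, whereas the log2 intervals of its ratio included 0 in NIH/3T3 and in mESCs. Jarid2 was lower in the highest tercile in all lines, at 0.68-fold in N2a, 0.66-fold in NIH/3T3, and 0.91-fold in mESCs. These ratios were at percentiles 3.86, 2.98, and 28.9 of the genes of the line, so the mESC value was common among genes. Phc1 in NIH/3T3 was at 0.59-fold, from 23 against 39 UMIs, at percentile 1.62, with a log2 interval from -1.65 to -0.06. Eed was higher in all lines, at 1.38-fold, 1.53-fold, and 1.20-fold in N2a, NIH/3T3, and mESCs, at percentiles 93.3, 96.6, and 87.0. Cbx7 was lower in N2a, at 0.69-fold, and the interval of its log2 ratio in mESCs ran from -0.16 to 0.21. The members with E2F-like matches, Ezh2, Suz12, and Mtf2, had N2a ratios of 2.11-fold, 1.35-fold, and 1.17-fold. Suz12 and Mtf2 had been printed because of their match. Of the members without a match, Eed was at 1.38-fold, Phc1 at 1.16-fold, Ring1 at 1.06-fold, and Rnf2 at 0.995-fold in N2a. The log2 intervals of Phc1, Ring1, and Rnf2 included 0. Ezh1, Cbx7, and Jarid2, also without a match, were lower, as given above. A link between matches and ratios was not tested. In NIH/3T3 Ezh2, Suz12, and Mtf2 were at 1.29-fold, 1.09-fold, and 1.13-fold, the log2 interval of Mtf2 including 0. In mESCs Ezh2 was at 1.10-fold and Suz12 at 1.05-fold, with a log2 interval for Suz12 that included 0. Mtf2 was lower in mESCs, at 0.88-fold, with a log2 interval from -0.25 to -0.13, at percentile 23.1 of the genes of the line.

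By 34 G2/M genes, Suz12 had the largest ratio of the members, at 1.50-fold in N2a, with 125.3 against 83.1 CPM, and 1.53-fold in NIH/3T3, with 329.3 against 214.2 CPM. In mESCs Suz12 was at 0.90-fold. By the same G2/M genes, Ezh2 was at 1.24-fold in N2a, 1.33-fold in NIH/3T3, and 1.10-fold in mESCs. The terciles are ranges of a continuous share, and in N2a 272 cells lay within 10% of the upper S phase limit and 251 within 10% of the lower. In NIH/3T3 these were 336 and 279 cells, and in mESCs 595 and 453 cells.

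**Figure D5:**
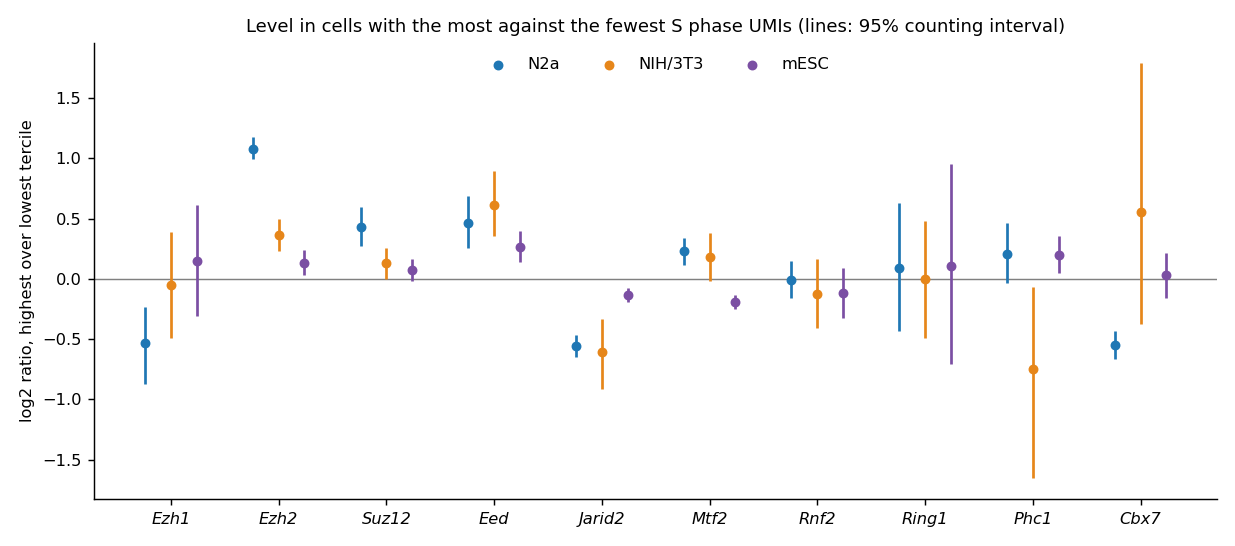
Log2 ratio of CPM + 1 between the terciles of cells with the highest and the lowest share of S phase UMIs, for each member and line, with vertical lines for the 95% counting interval of the plain CPM ratio. Ezh2 in N2a stands highest at 1.08, Jarid2 lies below 0 in all lines, and the intervals of Cbx7 and Phc1 in NIH/3T3 are wide.

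In mESCs, 82 cells held at least 3 UMIs of transcripts of the 2-cell stage, such as the Zscan4 genes, from a list of 10 of which 9 were counted. Mtf2 was at 1914 CPM (1781 to 2055) in them and at 1268 CPM (1248 to 1288) in the other 2055 cells, whereas Cbx7 was at 57.4 CPM (36.4 to 86.1) against 127.0 CPM (120.7 to 133.6) and Jarid2 at 943.4 CPM (850.6 to 1043) against 1212 CPM (1193 to 1232). Of the core subunits, Suz12 was at 419.3 CPM (358.3 to 487.7) against 513.5 CPM (500.7 to 526.6) and Eed at 187.2 CPM (147.2 to 234.6) against 250.3 CPM (241.4 to 259.5), both lower with intervals that did not overlap. The Ezh2 level, at 381.8 CPM (323.7 to 447.4) against 397.3 CPM (386.0 to 408.7), had overlapping intervals, as had those of Ezh1, Rnf2, Ring1, and Phc1. These intervals leave out the spread between cells, so intervals that do not overlap are not a test. Between mESC wells the SD of Suz12 was 55.9 CPM against 37.6 CPM from counting, and that of Eed 29.0 against 26.2 CPM. The same comparison was not made for all genes.

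Genes on the opposite strand overlap 9 of the 10 members, and Ring1 has none. The sources used here do not say whether counting used strand or introns. The longest overlaps were of Suz12 with Crlf3, over 26752 bases, and of Jarid2 with Dtnbp1, over 24674 bases. Crlf3 was at 44.6, 97.5, and 90.1 CPM and Dtnbp1 at 70.3, 54.4, and 25.9 CPM in N2a, NIH/3T3, and mESCs. Their part in the values of the members was not tested.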

How the data were processed

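UMI counts per gene and barcode were deposited by the authors in 4 matrices, 1 pooled and 3 split by line, made with STARsolo on GRCm39 with the GENCODE annotation and without a cell filter or normalization. The 3 matrices split by line were used here, and the pooled matrix served as an alternative. UMIs were summed over cells of 1000 UMIs or more, with mitochondrial UMIs of 20% or less, and scaled to CPM. Ratios used a pseudocount of 1 CPM and a threshold of 2-fold. Thinning drew 1000 UMIs per cell. Doublets were not called, and an alternative dropped the 5% deepest cells. With no replicate library of a line, no test was made. Depth is the number of UMIs, and a count of 0 allows up to 3 counts.

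The text names all 10 members, the listed Polycomb genes past 2-fold with at least 20 CPM in a line, and family members. The levels of 2 listed genes are not reported here, and the counts of the list include 1 of them. The members and lists were chosen with earlier results of these data known. Gene spans, overlaps, and starts came from a later GENCODE release on GRCm39. The steps were tested on simulated data. The tools were pandas 2.3.3, scipy 1.17.1, numpy 2.4.6, and matplotlib 3.10.9 under Python 3.11.15.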

Additional observations from a re-analysis of the deposited data

How the results depend on the processing

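No log2 ratio of a member changed sign or crossed 2-fold (0 of 30 ratios in each of 10 alternatives, which changed the cell filter, the matrix, the weighting of cells, the pseudocount, or the scaling). The largest shift was 0.76 on the log2 scale, for Cbx7 in N2a over NIH/3T3 with a pseudocount of 5 CPM, and under the other alternatives shifts were 0.25 or less. The Ezh2 share of Ezh1 and Ezh2 UMIs moved to 94.1%, 93.0%, and 96.0% in N2a, NIH/3T3, and mESCs when divided by exonic length, and to 87.2%, 85.0%, and 91.2% by gene length. With a threshold of 1.5-fold, 2 members were lower in N2a than in NIH/3T3 instead of 1 (25.7% of all genes), 2 were higher in N2a than in mESCs instead of 0 (30.3%), and 8 were lower in NIH/3T3 than in mESCs instead of 5 (28.8%). Of the other Polycomb genes, 16 were then higher in N2a than in NIH/3T3 instead of 8 (27.4% of all genes), 7 were lower instead of 4 (25.7%), and 12 were higher in N2a than in mESCs instead of 7 (30.3%). Shares within families divided by exonic length moved beyond their counting intervals in 67 cases and stayed within them in 5, and all 30 shares of positive cells moved with the depth of thinning. The Ezh2 ratio between S phase terciles held under 3 alternatives chosen after seeing the data. No paired analysis was possible because no line had a replicate library. The lowest counts behind a level were 53 UMIs for Cbx7 and 92 for Phc1 in NIH/3T3 and 90 for Ring1 in mESCs.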
